A study of Homo sapiens with 8 samples.

Results

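SMARCA2, PLCL2, TMEM2, AUTS2, MICAL2, PROX1, DNAH5, RND3, RAB38 and ELL2 are 10 genes of the human embryonic stem cell (ESC) line MEL1. They were chosen by their measured TCDD effects in these same libraries: the transcript difference between cells given TCDD and cells given its solvent faded, appeared or changed sign between the 2 sampling times. The choice carried no numerical threshold. The tables listed 27317 gene symbols, of which 17268 passed a filter on low counts, and all 10 genes had a row and passed. TCDD (2,3,7,8-tetrachlorodibenzodioxin) is a dioxin that activates the aryl hydrocarbon receptor (AHR).

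RNA was sequenced from 8 libraries in 4 groups of 2. The first group was MEL1 cells with DMSO alone at D1, immediately before differentiation, and the second was cells exposed to 2 nM TCDD in DMSO at the ESC stage and sampled at D1. The other two groups had the same DMSO or ESC-stage TCDD exposure and were sampled at D2, when cardiac differentiation had been under way for 2 days in a basal medium with 5 µM of the GSK3 inhibitor CHIR99021. All groups came from a single line, and TCDD cells and controls alike received DMSO. The study profiled which genes differ in ESCs and in mesoderm after TCDD at the ESC stage. Whether same-group libraries came from separate cultures is not given in the sources used here, so p-values measure only the spread between these libraries, which may be technical.

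AHR is a transcription factor of the cytosol that moves to the nucleus when a ligand binds, pairs with ARNT and binds DNA at dioxin response elements, whose core is GCGTG. It raises detoxifying enzymes and its own repressors. GSK3 inhibition stabilises beta-catenin, and ESCs then pass through a primitive-streak state towards mesoderm. The 10 genes do not form a pathway. They encode a chromatin-remodelling ATPase (SMARCA2), a Polycomb-associated protein (AUTS2), a homeobox transcription factor (PROX1) and a transcription elongation factor (ELL2). The others encode an actin-oxidising enzyme (MICAL2), a small GTP-binding protein (RND3), a phospholipase C-like protein without catalytic activity (PLCL2), a membrane protein of hyaluronan turnover (TMEM2), a melanosome-trafficking GTPase (RAB38) and a ciliary dynein (DNAH5).

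To show what the starts of such genes look like, the 250 bases before the outermost RefSeq start (build GRCh38.p14) are printed for 4 of them, with each match to the core GCGTG, or its reverse complement CACGC, in capitals. PLCL2 (chr3:16884705-16884954, plus strand) and MICAL2 (chr11:12138140-12138389, plus strand) were lower with TCDD at D1 and hold the core. DNAH5 (chr5:13944689-13944938, minus strand) and RND3 (chr2:150487696-150487945, minus strand) had the highest TCDD values at D1 relative to DMSO and do not hold it in these windows.
PLCL2: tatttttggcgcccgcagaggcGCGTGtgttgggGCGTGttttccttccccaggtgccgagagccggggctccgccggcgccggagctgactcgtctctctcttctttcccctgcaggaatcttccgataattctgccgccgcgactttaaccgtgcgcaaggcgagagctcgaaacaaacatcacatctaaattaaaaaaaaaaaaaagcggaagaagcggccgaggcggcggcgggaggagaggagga
MICAL2: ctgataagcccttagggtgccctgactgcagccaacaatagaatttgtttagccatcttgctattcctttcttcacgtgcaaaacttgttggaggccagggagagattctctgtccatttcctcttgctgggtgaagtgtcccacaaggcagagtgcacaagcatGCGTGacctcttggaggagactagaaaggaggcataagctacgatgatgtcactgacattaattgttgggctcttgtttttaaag
DNAH5: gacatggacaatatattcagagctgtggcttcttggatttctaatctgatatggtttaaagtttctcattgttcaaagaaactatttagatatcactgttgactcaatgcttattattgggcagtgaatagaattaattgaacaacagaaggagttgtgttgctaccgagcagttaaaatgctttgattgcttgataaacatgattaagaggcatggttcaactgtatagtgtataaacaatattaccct
RND3: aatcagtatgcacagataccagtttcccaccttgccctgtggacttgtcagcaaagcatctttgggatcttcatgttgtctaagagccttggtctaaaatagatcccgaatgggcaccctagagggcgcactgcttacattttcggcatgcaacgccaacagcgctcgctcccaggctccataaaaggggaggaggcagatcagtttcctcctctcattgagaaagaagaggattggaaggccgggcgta
The matches lie 228 and 216 bases before the PLCL2 start and 85 bases before the MICAL2 start. A second RefSeq start of RND3, whose window overlaps the printed one, has the core 12 bases before it. For RND3 the presence of the core thus depends on the start taken. RefSeq promoter entries matched 7 of the 10 genes, all but PROX1, RAB38 and ELL2, and 3 of these genes' 13 entries held the core, 1 each for PLCL2, MICAL2 and RND3. SMARCA2, TMEM2 and AUTS2 were also lower with TCDD at D1 and held none in any entry. The 4 printed windows are examples, and a link of the core to the direction of the TCDD effect was not tested. Of all 35116 RefSeq promoter entries searched in the same way, 32.2% held the core on either strand, so a match is a description of the letters and not of a binding site.

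Levels are given as CPM, read counts relative to the library total after scaling for composition, for replicate 1 and then replicate 2 of each group. Library totals ran from 34873055 to 43770420 counts. Over the 8 libraries the 10 genes had between 48 counts (MICAL2 in a DMSO library of D2) and 9434 counts (TMEM2 in a TCDD library of D2). MICAL2, DNAH5 and PROX1 had the fewest counts, with lowest values of 48, 54 and 61 counts, and their values carry the widest errors. The exposure showed in CYP1A1, a cytochrome P450 and AHR target, at 0.761 and 0.813 CPM with DMSO and 101 and 77.7 CPM with TCDD at D1. At D2 CYP1A1 was at 0.464 and 0.292 CPM with DMSO and 2.56 and 1.82 CPM with TCDD. The pluripotency factor POU5F1 was present in every library (447 to 540 CPM). The streak factors EOMES, T and MIXL1 were between 0.0275 and 1.58 CPM at D1 and between 45.2 and 308 CPM at D2.

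Of the 10 genes, 6 were lower with TCDD at D1 and higher with TCDD at D2: SMARCA2, PLCL2, TMEM2, PROX1, AUTS2 and MICAL2. RAB38 and ELL2 showed the opposite order, higher at D1 and lower at D2. DNAH5 and RND3 were higher at both times, with the difference at D2 much smaller. Within each time the 2 TCDD libraries did not overlap the 2 DMSO libraries for any of the 10 genes. Non-overlap held for 37.5% of all tested genes at D1, 18.9% with TCDD above and 18.6% with TCDD below, and for 47.7% at D2, 24.4% above and 23.3% below. Opposite signs at the 2 times, found in 8 of the 10, occurred in 47.3% of all tested genes. A larger TCDD effect at D1 than at D2, found in 8 of the 10, occurred in 45.7%. These patterns are what the genes were chosen for and are given as description.

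**Figure D1:**
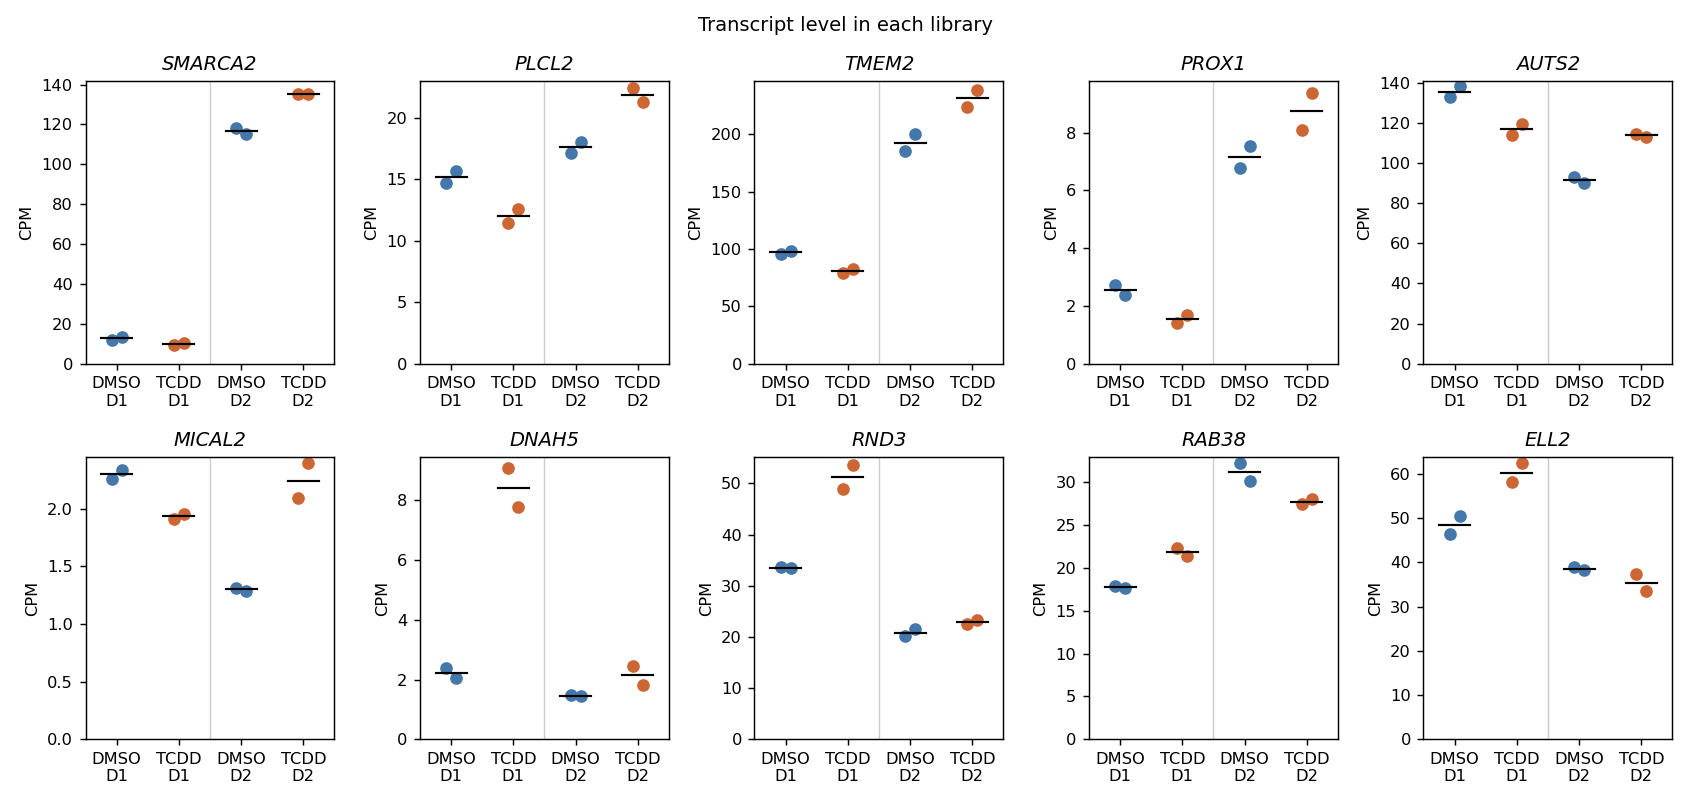
Transcript level in CPM (vertical axis, linear from 0) of the 10 genes in each of 8 libraries, by treatment and time. Points are libraries and bars are means of 2; TCDD points lie below DMSO points at D1 and above them at D2 for SMARCA2, PLCL2, TMEM2, PROX1, AUTS2 and MICAL2.

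SMARCA2 encodes BRM, one of the alternative ATPase motors of the SWI/SNF (BAF) chromatin remodeller. It stood at 12.1 and 13.2 CPM with DMSO at D1 and 9.57 and 10.5 CPM with TCDD at D1. At D2 it stood at 118 and 115 CPM with DMSO and at 135 and 135 CPM with TCDD. The gene was therefore far higher at D2 in all 4 libraries, and the TCDD libraries moved from below to above their controls. The log2 fold change for TCDD was -0.34 ± 0.07 (SE) at D1 and 0.22 ± 0.05 at D2, a difference of 0.56 ± 0.09.

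PLCL2 encodes a phospholipase C-like protein that binds inositol trisphosphate but does not cleave lipid. Its levels were 14.7 and 15.6 CPM with DMSO and 11.5 and 12.6 CPM with TCDD at D1. At D2 they were 17.1 and 18.1 CPM with DMSO and 22.4 and 21.3 CPM with TCDD. TCDD libraries thus held both the lowest and the highest values of this gene. The TCDD log2 fold change went from -0.34 ± 0.08 at D1 to 0.31 ± 0.07 at D2.

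TMEM2, named CEMIP2 in current RefSeq, encodes a membrane protein tied to the breakdown of hyaluronan at the cell surface. It had 96.0 and 98.1 CPM with DMSO and 78.8 and 82.6 CPM with TCDD at D1. At D2 it had 186 and 200.02 CPM with DMSO and 224 and 238 CPM with TCDD. As for PLCL2, the TCDD libraries were the outermost at both ends of the range. The log2 fold change was -0.27 ± 0.05 at D1 and 0.26 ± 0.05 at D2, nearly equal in size and opposite in sign.

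PROX1 encodes a homeobox factor needed in lymphatic endothelium, liver and heart. Its D1 levels were 2.71 and 2.39 CPM with DMSO and 1.42 and 1.68 CPM with TCDD. Its D2 levels were 6.77 and 7.52 CPM with DMSO and 8.10 and 9.38 CPM with TCDD. Here the D1 difference was the larger of the pair, with a log2 fold change of -0.73 ± 0.18 against 0.28 ± 0.11 at D2. The D2 value was 0.18 without TCDD replicate 2 of D2. The antisense transcript PROX1-AS1 overlaps PROX1 in RefSeq and reached at most 0.358 CPM in any library; without a stated strand setting, reads of the overlap cannot be assigned to either. RefSeq also lists antisense transcripts over PLCL2 and DNAH5, to which the same applies.

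AUTS2 encodes a partner of a noncanonical Polycomb complex that is linked to active transcription in neurons. It had 133 and 139 CPM with DMSO at D1 and 93.1 and 90.2 CPM with DMSO at D2. With TCDD it had 114 and 119 CPM at D1 and 115 and 113 CPM at D2. The gene was lower at D2 than at D1 in DMSO cells, whereas its level in TCDD cells was nearly the same at both times. The TCDD log2 fold change was -0.22 ± 0.05 at D1 and 0.31 ± 0.05 at D2.

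MICAL2 encodes a flavin monooxygenase that oxidises actin and is known to promote transcription through SRF and MRTF. It had 2.26 and 2.34 CPM with DMSO and 1.91 and 1.95 CPM with TCDD at D1. At D2 it had 1.31 and 1.29 CPM with DMSO and 2.09 and 2.39 CPM with TCDD. The DMSO libraries of D2 were thus the low group, and the other 3 groups lay between 1.91 and 2.39 CPM. The log2 fold change was -0.25 ± 0.16 at D1 and 0.78 ± 0.18 at D2, so most of its change in TCDD effect came from D2.

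DNAH5 encodes a heavy chain of the outer dynein arm that drives motile cilia. At D1 it had 2.38 and 2.06 CPM with DMSO and 9.08 and 7.76 CPM with TCDD, 3.80-fold higher. At D2 it had 1.47 and 1.44 CPM with DMSO and 2.47 and 1.82 CPM with TCDD. Of the 10 genes it had the largest TCDD log2 fold change at D1, 1.93 ± 0.14, and a much smaller one, 0.57 ± 0.20, at D2. Without TCDD replicate 1 of D2 the D2 value was 0.32.

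RND3 encodes a small GTP-binding protein that stays bound to GTP. It had 33.6 and 33.4 CPM with DMSO and 48.8 and 53.5 CPM with TCDD at D1. At D2 it had 20.2 and 21.5 CPM with DMSO and 22.5 and 23.3 CPM with TCDD. TCDD libraries were 1.52-fold above DMSO at D1 and 1.10-fold at D2, with log2 fold changes of 0.61 ± 0.06 and 0.14 ± 0.07.

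RAB38 encodes a GTPase that carries cargo to melanosomes and other lysosome-related organelles. Its D1 levels were 17.8 and 17.6 CPM with DMSO and 22.3 and 21.3 CPM with TCDD, and its D2 levels were 32.2 and 30.2 CPM with DMSO and 27.4 and 28.0 CPM with TCDD. The TCDD libraries therefore spanned a narrower range across the 2 times than the DMSO libraries. The log2 fold change was 0.30 ± 0.07 at D1 and -0.17 ± 0.06 at D2.

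ELL2 encodes an RNA polymerase II elongation factor of the super elongation complex. It had 46.4 and 50.6 CPM with DMSO and 58.2 and 62.4 CPM with TCDD at D1. At D2 it had 38.9 and 38.2 CPM with DMSO and 37.4 and 33.5 CPM with TCDD. The log2 fold change was 0.31 ± 0.06 at D1. The D2 value was -0.12 ± 0.06, or -0.04 without TCDD replicate 2 and -0.20 without TCDD replicate 1 of D2. CAST, whose span in RefSeq overlaps that of ELL2, could share reads with it.

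**Figure D2:**
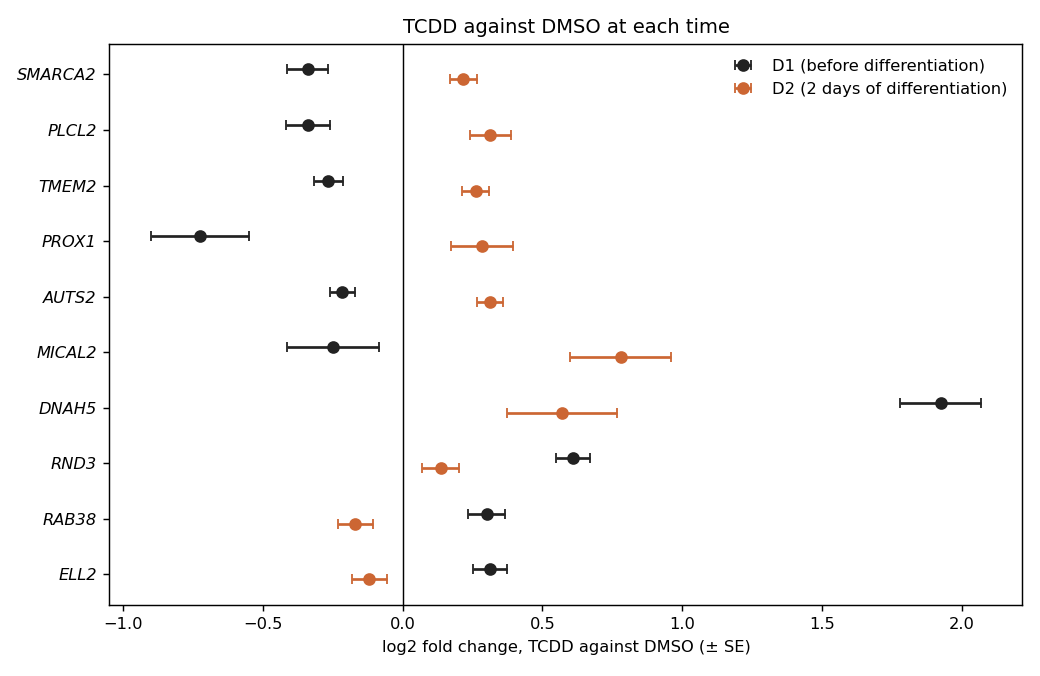
Log2 fold change of TCDD against DMSO (horizontal axis) with its SE for each of the 10 genes, at D1 (black) and D2 (orange), each from 2 against 2 libraries. For 6 genes the black point is left of 0 and the orange point right of it, and DNAH5 has the largest D1 value, 1.93.

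Because these contrasts chose the genes, their counts of calls are stated once and nothing is read from them. With the edgeR quasi-likelihood test at an adjusted p under 0.05, 9 of the 10 were called at D1, all but MICAL2 (4 higher, 5 lower), where 1.14% of all tested genes were called, 0.735% higher and 0.405% lower. At D2 the 5 called were SMARCA2, PLCL2, TMEM2, AUTS2 and MICAL2, all higher, where 2.9% of all genes were called, 1.4% higher and 1.5% lower. All 10 were called for the difference of the 2 effects, where 0.822% of all genes were called, 0.527% higher and 0.295% lower (91 and 51 genes, or 75 and 65 with no composition scaling). With the replicate block 9 were called for the difference, all but MICAL2, which was also called in none of the 8 fits that left out a library. DESeq2 called 6 of the 10 at D1, 3 at D2 and 8 for the difference, where it called 169, 364 and 139 of all 17268 genes. A fit of the 4 libraries of D1 alone called 4 of the 10, and 137 of 16935 genes. A fit of the 4 libraries of D2 alone called 5 of the 10, and 696 of 16523 genes. The median size of the log2 difference of effects was 0.54 over the 10 genes and 0.11 over all tested genes. At D1, 2 of the 10 were called without DMSO replicate 1, 3 without DMSO replicate 2 and 3 without TCDD replicate 1 of that time. At D2, leaving out DMSO replicate 1, DMSO replicate 2, TCDD replicate 1 or TCDD replicate 2 of that time gave 1, 2, 3 and 1 called. For the difference, between 5 and 8 were called when 1 library was left out. The sign of each gene's difference was the same in every one of those fits. For the 8 genes with opposite signs and non-overlapping libraries at both times, this was all but fixed in advance. Nothing is read from it.

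The level at D2 against D1, averaged over both treatments, has weights orthogonal to the contrasts that chose the genes, and it was tested. All 10 genes passed, 5 higher and 5 lower at D2, against 74.3% of all tested genes (37.7% higher, 36.7% lower). A pass was therefore common to most genes. Culture time, the change of medium and a possible processing batch are confounded here and cannot be told apart. In bulk RNA, fewer cells of a type and less RNA per cell also cannot be told apart.

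SMARCA2 rose most, 11.2-fold at D2 (log2 fold change 3.48 ± 0.04, edgeR adjusted p = 1.01e-23). PROX1 rose 3.98-fold (log2 1.99 ± 0.10, edgeR adjusted p = 1.27e-13), TMEM2 2.39-fold (log2 1.25 ± 0.04, edgeR adjusted p = 1.49e-17), RAB38 1.49-fold (log2 0.58 ± 0.05, edgeR adjusted p = 2.73e-10) and PLCL2 1.45-fold (log2 0.54 ± 0.05, edgeR adjusted p = 1.15e-08). DNAH5 fell 2.44-fold (log2 -1.29 ± 0.12, edgeR adjusted p = 5.02e-09) and ELL2 1.46-fold (log2 -0.55 ± 0.04, edgeR adjusted p = 3.53e-10). RND3 fell by 0.92 ± 0.05 on the log2 scale (edgeR adjusted p = 1.07e-13). AUTS2 fell by 0.30 ± 0.03 (edgeR adjusted p = 4.18e-08). MICAL2 fell by 0.31 ± 0.12 (edgeR adjusted p = 0.0295). That call was lost with DESeq2 (adjusted p = 0.138), without replicate 2 of DMSO at D1, without either DMSO library of D2, without either TCDD library of D1 and without TCDD replicate 1 of D2 (edgeR adjusted p up to 0.104). The genes thus included both ones that gain and ones that lose expression between D1 and D2.

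**Figure D3:**
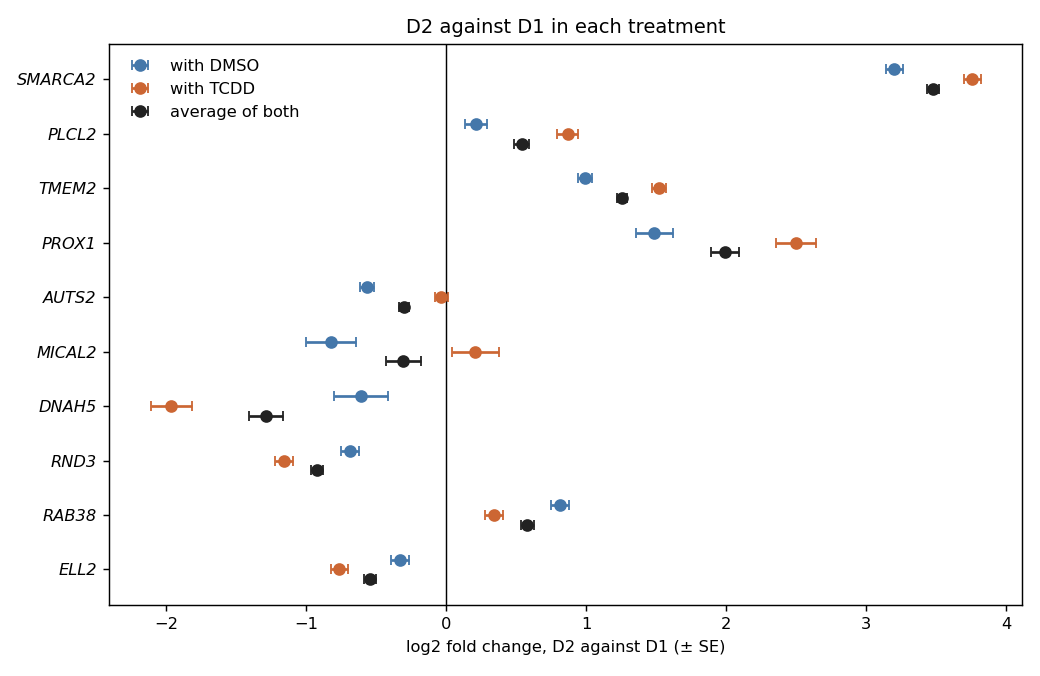
Log2 fold change of D2 against D1 (horizontal axis, ± SE) with DMSO (blue), with TCDD (orange) and averaged over both (black). SMARCA2 lies farthest to the right, at 3.48 for the average, while AUTS2 and MICAL2 are near 0 with TCDD and below 0 with DMSO.

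Within each treatment the same change is given as values only, since each enters the difference that chose the genes. SMARCA2 was 9.20-fold higher at D2 with DMSO and 13.5-fold with TCDD. PROX1 was 2.80-fold higher with DMSO and 5.64-fold with TCDD, and TMEM2 1.99-fold and 2.86-fold. AUTS2 had a log2 change of -0.57 with DMSO and -0.04 with TCDD, and MICAL2 of -0.82 and 0.21. For the genes high with TCDD at D1, the D2 level was lower by more in TCDD cells, with log2 changes for DNAH5 of -0.61 with DMSO and -1.96 with TCDD. RND3 had -0.69 and -1.16, and ELL2 had -0.33 and -0.76. RAB38 was the exception in this group, with 0.81 with DMSO and 0.34 with TCDD.

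Markers of pluripotent cells were mixed. The summed level of 12 such markers was 9796 to 10047 CPM with DMSO and 9335 to 9449 CPM with TCDD at D1, and 6599 to 6703 CPM with DMSO and 7143 to 7208 CPM with TCDD at D2. None of the 12 was at 0 in any group. At D1 1 of the 12 was called, PRDM14, lower with TCDD, and at D2 3 were called, SOX2, PRDM14 and PODXL, all higher. The sum thus had the order of the 6 genes that were lower and then higher, but PODXL alone gave 2617 CPM of it on average with DMSO at D1, and single markers differed in order. NANOG was at 16.2 and 16.2 CPM with DMSO and 15.14 and 15.03 CPM with TCDD at D1, and at 26.2 and 24.8 CPM and 22.9 and 22.9 CPM at D2, below its controls at both times and not called. The D1 log2 value of POU5F1 was -0.0039, with overlapping libraries. Over the 12 markers the median log2 value was -0.08 at D1 and 0.09 at D2. Summed streak markers, 10 with a row, were 12.4 to 12.8 CPM with DMSO and 12.5 to 13.4 CPM with TCDD at D1, and 651 to 690 CPM with DMSO and 316 to 358 CPM with TCDD at D2. EVX1 was at 0 in both groups of D1. Of the 10, 1 was called at D1, LHX1, higher with TCDD but at only 0.127 to 0.716 CPM over all libraries. At D2 6 were called, MIXL1, EOMES, T, WNT3, FGF8 and GSC, all lower with TCDD. Neural ectoderm markers, 8 in number with NES the highest, summed to 662 to 680 CPM and 561 to 605 CPM at D1, and 368 to 370 CPM and 390 to 400 CPM at D2, with DMSO and TCDD, and NES was called lower at D1. The D1 calls of PRDM14 and LHX1 were lost in fits lacking any D1 library but the first of TCDD (edgeR adjusted p up to 0.146 and 0.381), and that of NES in fits lacking any D1 library but the second of TCDD (up to 0.299). The D2 call of PODXL was lost in fits lacking any D2 library but the second of TCDD (up to 0.207). The part of these cell states in the values of the 10 genes was not tested. Endoderm sums reached at most 60.5 CPM. Of 6 tested endoderm markers, 3 were called lower with TCDD at D2, CER1 (log2 value -1.10), GATA4 (-0.59) and GATA6 (-1.53). GATA6 was at only 0.285 to 1.10 CPM at D2, and DESeq2 gave it no adjusted p. The CER1 call was lost with DESeq2 (adjusted p = 0.124), and those of GATA4 and GATA6 without the second DMSO or first TCDD library of D2 (edgeR adjusted p up to 0.12 and 0.167). Trophoblast sums reached at most 12.1 CPM, with CGA at 0 throughout. Fibroblast markers summed to 227 to 484 CPM over the 8 libraries, of which COL1A1 gave 129 to 384 CPM and was called higher with TCDD at both times while LUM was at 0 throughout. The D1 call of COL1A1 was lost without either DMSO library of D1 or replicate 1 of TCDD at either time (up to 0.409).

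Genes related to 9 of the 10, all but RND3, by complex, family or pathway were examined next. The share of all tested genes called was 1.14% at D1, 2.9% at D2 and 0.822% for the difference, and the lists are read against it. At an unadjusted edgeR p under 0.05 the shares of all tested genes were 10.3%, 14% and 10.3%, and unadjusted counts are read against those. Most related genes did not pass in any TCDD contrast, and neither did the closest paralogs that were tested. PLCL1 was too low to test, and DNAH8 was so low that not passing says little.

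Of 25 other SWI/SNF subunits tested, 0 passed at D1, at D2 or for the difference with edgeR, with 2, 4 and 3 at an unadjusted p under 0.05 and 0 with DESeq2 in each. SMARCA4, the alternative ATPase, held between 418 and 512 CPM in all 8 libraries, and rose 1.09-fold at D2 on average (edgeR adjusted p = 0.00276), a call lost with no composition scaling. The same averaged change was 11.2-fold for SMARCA2. Of 15 Polycomb partners of AUTS2, 0 passed in any of the 3 contrasts, with 1, 1 and 0 at an unadjusted p under 0.05 and 0 with DESeq2. Its relatives FBRSL1 and FBRS had averaged D2 changes of 1.02-fold and 1.00-fold (edgeR adjusted p = 0.677 and 0.984).

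Of 13 phospholipase C genes, 0 passed at D1 with edgeR, 0 at an unadjusted p under 0.05 and 0 with DESeq2. At D2 PLCH1 rose, from 35.7 and 34.4 CPM with DMSO to 42.8 and 43.9 CPM with TCDD (log2 fold change 0.31 ± 0.06, edgeR adjusted p = 0.00389), losing the call without replicate 2 of DMSO or of TCDD at D2 (adjusted p up to 0.0868). The paralog PLCL1 had at most 6 counts in a library and was not tested. For the difference 0 passed, with 3 at an unadjusted p under 0.05 and 0 with DESeq2. At D2 3 of the 13 had an unadjusted p under 0.05 (23.1%, against 14% of all tested genes).

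Of 17 hyaluronan genes, 0 passed at D1, with 0 at an unadjusted p under 0.05 and 0 with DESeq2, while at D2 1 rose and 1 fell. HAS2, a hyaluronan synthase, fell from 19.6 and 19.8 CPM with DMSO to 9.19 and 10.8 CPM with TCDD, a log2 value of -0.99 ± 0.10 (edgeR adjusted p = 1.49e-06). CD44, the main hyaluronan receptor, rose from 25.2 and 24.7 CPM to 35.2 and 34.9 CPM (log2 fold change 0.49 ± 0.07, edgeR adjusted p = 0.000129). CD44 was also the hyaluronan gene whose TCDD effect differed between times, by 0.65 ± 0.12 (edgeR adjusted p = 0.0116, and 0.167 without DMSO replicate 1 of D1). The other 15 of the 17 were not called at D2, where the median log2 value of the 17 was 0.01. At an unadjusted p under 0.05 there were 2 at D2 and 2 for the difference, 11.8% each. CEMIP, the closest relative of TMEM2, was at 1.16 to 3.76 CPM and fell at D2 on average by 1.13 on the log2 scale (edgeR adjusted p = 9.92e-08), opposite to TMEM2.

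Of 21 MICAL family and SRF target genes, 1 fell at D1 and 1 rose at D2. At an unadjusted p under 0.05 there were 5 at D1 (23.8%, against 10.3% of all tested genes). At D2 there were 7 (33.3%, against 14%). ANKRD1, a cardiac ankyrin repeat protein, was at 2.31 and 1.22 CPM with DMSO and 0.467 and 0.496 CPM with TCDD at D1, a log2 value of -1.87 ± 0.31 (edgeR adjusted p = 0.00224, or 0.111 without DMSO replicate 1 of D1). TAGLN, an actin-binding protein of smooth muscle, rose at D2 from 107 and 104 CPM to 143 and 145 CPM (0.45 ± 0.07, edgeR adjusted p = 0.0048). TAGLN lost its call without replicate 2 of DMSO or either replicate of TCDD at D2 (adjusted p up to 0.183). For the difference 0 of the 21 passed with edgeR, 3 had an unadjusted p under 0.05 and 1 passed with DESeq2. MICAL1 was at 45.1 to 75.5 CPM and MICAL3 at 43.9 to 57.0 CPM.

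Of 9 tested genes around PROX1, PDPN, a glycoprotein of lymphatic endothelium, was the gene that passed. It rose at D2 from 51.8 and 50.1 CPM to 61.4 and 61.0 CPM (log2 value 0.27 ± 0.05, edgeR adjusted p = 0.00202, rising to 0.0741 without DMSO replicate 2 of D2). Its TCDD effect differed between times by 0.31 ± 0.07 (edgeR adjusted p = 0.0224), a call lost without any single library other than the TCDD libraries of D1 (adjusted p up to 0.184). At D1 0 of the 9 passed with edgeR or DESeq2, and 1 had an unadjusted p under 0.05. At D2 2 had an unadjusted p under 0.05 (22.2%, against 14% of all tested genes), and for the difference 1.

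Of 31 tested ciliary genes, FOXJ1, the master factor of motile cilia, rose at D1 from 16.4 and 19.3 CPM to 23.1 and 23.8 CPM (log2 fold change 0.39 ± 0.08, edgeR adjusted p = 0.0186). It did not pass with DESeq2 (adjusted p = 0.078) or without replicate 1 of DMSO or either TCDD library of D1 (edgeR adjusted p up to 0.481). The other 30 did not pass at D1, and 0 of the 31 passed at D2 or for the difference, with 4 and 3 at an unadjusted p under 0.05 and 0 with DESeq2. At D1 4 of the 31 had an unadjusted p under 0.05 (12.9%). The closest dynein relative, DNAH8, was at most 0.275 CPM. None of the other heavy chains tested was called with TCDD by edgeR or DESeq2.

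Of 25 genes of the RAB32 and RAB38 pathway, 0 passed in any TCDD contrast, with 0, 2 and 0 at an unadjusted p under 0.05 and 0 with DESeq2. RAB32 was at 3.88 to 5.64 CPM and RAB29 at 16.5 to 18.9 CPM. Of 25 super elongation and pause-release genes, AFF2, of the AFF family of scaffold proteins, rose at D2 from 13.2 and 14.3 CPM to 17.4 and 16.9 CPM (log2 fold change 0.32 ± 0.07, edgeR adjusted p = 0.0138). It lost the call without DMSO replicate 1 or either TCDD library of D2 (adjusted p up to 0.258). The difference of its effects, 0.44 ± 0.10, passed in the full fit (edgeR adjusted p = 0.0373). It passed in none of the 8 fits that left out a library (0.0555 to 0.267), nor with DESeq2 or with no composition scaling. At D1 0 of the 25 passed with edgeR or DESeq2, and 4 had an unadjusted p under 0.05. At D2 7 had an unadjusted p under 0.05 (28%, against 14% of all tested genes), and for the difference 2. ELL (20.4 to 26.1 CPM) and ELL3 (11.9 to 16.1 CPM), the paralogs of ELL2, did not pass in a TCDD contrast.

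**Figure D4:**
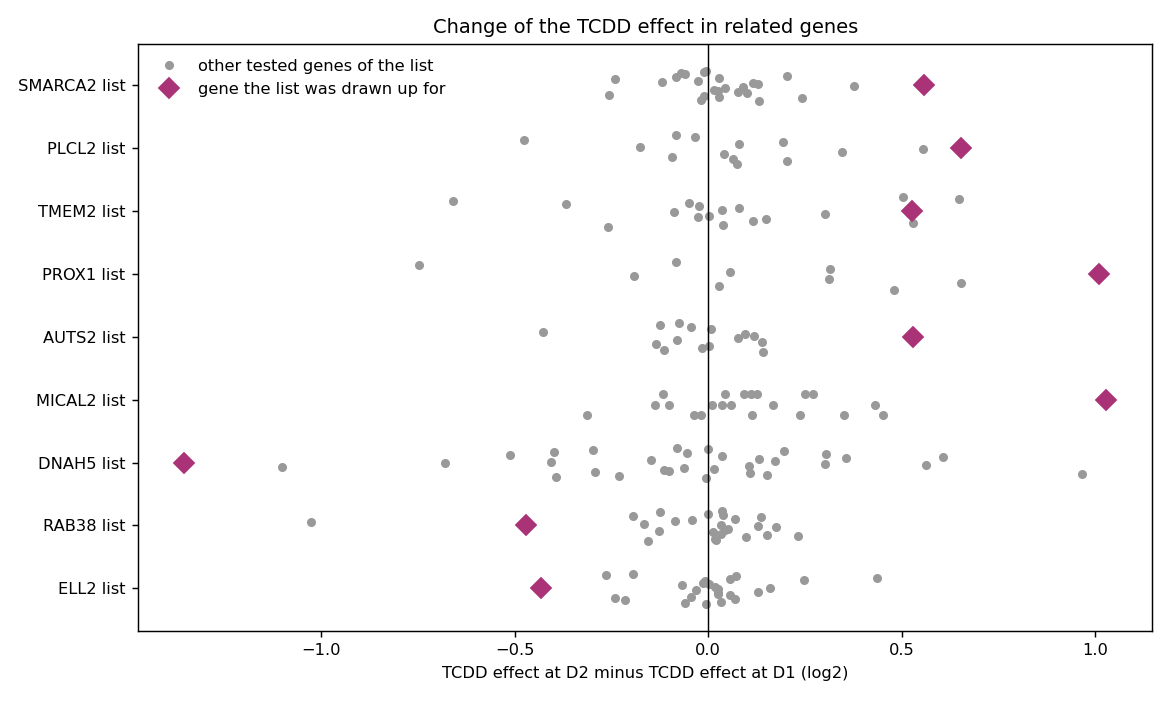
Difference of the TCDD effects, D2 minus D1 on the log2 scale (horizontal axis), for 9 of the 10 genes, all but RND3 (diamonds), and the other tested genes of each one's list (grey points, spread vertically for legibility). The diamonds, chosen for this quantity, run from -1.35 for DNAH5 to 1.03 for MICAL2, and most grey points lie near 0.

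The nearest tested protein-coding genes on both sides of each gene, in the order of RefSeq on GRCh38.p14, gave 20 neighbours. Their distances ran from 14.3 to 2359.0 kb. PCSK1, TRPM3, VLDLR and DAZL, named below, lay 428.5, 236.4, 428.2 and 279.5 kb away. At D1 0 of the 20 passed with edgeR, against 1.14% of all tested genes, and 0 with DESeq2. At an unadjusted edgeR p under 0.05 there were 5, where the share of all tested genes was 10.3%. At D2 3 passed, against 2.9% of all tested genes. PCSK1, a prohormone convertase beside ELL2, rose with TCDD from 41.8 and 42.6 CPM to 57.0 and 56.7 CPM (log2 fold change 0.43 ± 0.06, edgeR adjusted p = 5.09e-05), while ELL2 itself was slightly lower. TRPM3, a cation channel beside TMEM2, rose from 10.1 and 11.6 CPM to 16.2 and 14.0 CPM (0.47 ± 0.10, edgeR adjusted p = 0.00813, and up to 0.186 without replicate 1 of DMSO or TCDD at D2). VLDLR, a lipoprotein receptor beside SMARCA2, fell from 111 and 111 CPM to 95.6 and 88.4 CPM (-0.27 ± 0.07, edgeR adjusted p = 0.0368), a call lost without any of the 4 D2 libraries (up to 0.47) and with no composition scaling. For the difference of effects 0 of 20 passed with edgeR, against 0.822% of all tested genes. At an unadjusted edgeR p under 0.05 there were 5, where the share of all tested genes was 10.3%. With DESeq2 1 passed, DAZL beside PLCL2 (adjusted p = 0.0335, edgeR 0.0975). DAZL, a germ-cell RNA-binding protein, had log2 changes of -0.24 ± 0.11 at D1 and 0.34 ± 0.09 at D2, the order seen in PLCL2.

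Across the 8 libraries, the 2 genes nearest to each of the 10 were found by the root mean square difference of centred log2 CPM among 13470 candidates with a mean of at least 1 CPM. Likeness is a description, since all points share the same libraries. STOX2 lay nearest to SMARCA2, at 0.08, with TCDD log2 changes of -0.36 at D1 and 0.20 at D2. The synaptic organiser CBLN1 followed at 0.17, with TCDD log2 changes of -0.41 at D1 and -0.18 at D2, without a change of sign. By this distance, which is not scaled by how far a gene varies, AUTS2 had the closest partners. They were AP3S2 and CDK6, a cell-cycle kinase, each within 0.05. SOX2 lay nearest to MICAL2, at 0.12, with 323 and 347 CPM with DMSO and 293 and 309 CPM with TCDD at D1, and 233 and 246 CPM and 350 and 372 CPM at D2. The serotonin receptor gene HTR1D came next, at 0.13. TMEM169 and the G protein subunit gene GNAI1 were nearest to PLCL2 (0.10 each). CERS1, a ceramide synthase, and BRINP1 were nearest to TMEM2 (0.07 and 0.09).

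PROX1 had looser partners by this distance, HOXB1 (0.19) and the guidance cue NTN1 (0.20). By Pearson correlation these, at 0.984 and 0.980, were closer than the AUTS2 partners, at 0.977 and 0.972. HOXB1 had TCDD log2 values of -0.83 at D1 and -0.02 at D2, and NTN1 of -0.35 and 0.39. DNAH5 had the largest distances, TEX14 at 0.32 and AHRR, the AHR repressor, at 0.41. AHRR was at 1.42 and 1.68 CPM with DMSO and 3.36 and 3.72 CPM with TCDD at D1, and at 1.28 and 1.10 CPM and 1.26 and 1.43 CPM at D2. The TCDD log2 value of AHRR was 1.19 at D1 and 0.18 at D2, beside 1.93 and 0.57 for DNAH5. RGS11 and USH1G were nearest to RND3 (0.08 and 0.09), CORO2A and the retinoic acid receptor gene RARA to RAB38 (0.07 and 0.09), and PTGES, a prostaglandin synthase, and MRVI1 to ELL2 (0.06 and 0.07).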

How the data were processed

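For each of 8 libraries the authors deposited whole-number counts by gene symbol without normalisation, per the file headers. The submitters' processing notes name cutadapt 1.9.1, STAR, featureCounts 1.5.1 and hg19. The annotation, the strand setting and the handling of multimapping reads were not given in the sources used here, so overlapping, antisense and near-identical genes are uncertain. The members and lists were chosen with earlier results of these data known.

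Genes were filtered with edgeR's filterByExpr (17268 of 27317 symbols), scaled by TMM factors (0.958 to 1.04) and fitted in R 4.3.3 with edgeR 4.0.16 (robust quasi-likelihood F test, two-sided, 1 mean per group, all 8 libraries, common coefficient of variation 3.86%). Benjamini-Hochberg adjustment ran over all tested genes, with calls at an adjusted p under 0.05. Standard errors derive from the F statistic. The robust setting was chosen because it gives the counts of the earlier analysis. DESeq2 1.42.0, other scalings, filters, a replicate block and fits without each library were alternatives, and a fit without the robust setting was added after the data were seen.

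Each library was taken as a sample. Replicates differed by more than sampling noise (chi-square per gene 3.21 to 6.59 over genes with at least 20 summed counts). This does not show that they came from separate cultures. Text names all 10 genes, stage and exposure checks, up to 3 called genes by contrast of each related-gene list reported, the called neighbours and DAZL among the nearest ones, and the 2 most alike genes (log2 CPM with a prior count of 2). The closest paralogs, PROX1-AS1, CAST and the marker genes named other than the stage checks were added after values were seen. RefSeq names matched 26162 of the symbols. The list of genes related to RND3 is not reported here. The fits were also run on simulated counts in which all genes shared a single spread and DMSO levels did not change with time. These data differ from that setting, so the run is not evidence for the calls given here.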

Additional observations from a re-analysis of the deposited data

Results flagged for a closer look

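For several genes named beside the 10, the change in TCDD effect from D1 to D2 itself passed the edgeR test. All but TIPARP, SOX2 and MIXL1 were named because a TCDD contrast called them, so their passing partly follows from that choice. CYP1A1, an exposure check, differed by -4.27 and did not pass with edgeR (adjusted p = 0.0596). It did with DESeq2 (adjusted p = 1.47e-25). TIPARP, an AHR target that limits AHR signalling, differed by -1.55 on the log2 scale (edgeR adjusted p = 3.29e-08). It was at 6.01 and 5.77 CPM with DMSO and 61.9 and 65.5 CPM with TCDD at D1, and at 8.30 and 9.49 CPM and 33.3 and 32.6 CPM at D2. The pluripotency factor SOX2 differed by 0.75 (edgeR adjusted p = 2.38e-06). The streak factor MIXL1 differed by -1.10 (edgeR adjusted p = 0.0235), with a call lost without any single D1 library (up to 0.252). CD44 differed by 0.65, AFF2 by 0.44 and PDPN by 0.31, with the limits given above. The pluripotency genes PRDM14 and PODXL differed by 0.69 (edgeR adjusted p = 0.000148) and 0.31 (0.01). The PODXL call was lost without DMSO replicate 2 of D1, either DMSO library of D2 or TCDD replicate 1 of D2 (up to 0.123). The streak gene LHX1 differed by -2.64 (edgeR adjusted p = 0.0182), the neural marker NES by 0.32 (0.02) and the fibroblast marker COL1A1 by 0.34 (0.0175). LHX1 was at only 0.127 to 0.716 CPM over all libraries, and DESeq2 gave it no adjusted p. The LHX1 call was lost in fits lacking the first DMSO or second TCDD library of D1, either DMSO library of D2 or TCDD replicate 2 of D2 (up to 0.158). The NES call was lost without any single DMSO library or TCDD replicate 2 of D2 (up to 0.168), and the COL1A1 call without either DMSO library of D1, DMSO replicate 2 of D2 or either TCDD library of D2 (up to 0.188).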

How the results depend on the processing

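Depth limits the low genes most: MICAL2, DNAH5 and PROX1 rest on 48 to 389 counts per library. No log2 value of the 10 genes, in the TCDD contrasts, their difference or the averaged D2 change, changed sign under any alternative tried. For the TCDD contrasts and their difference, the genes were chosen on these values and their libraries did not overlap at either time. Stable signs there are given as description only. Of the averaged D2 calls of the 10, that of MICAL2 was lost, while in the TCDD contrasts and their difference many calls were lost, as counted above. For the difference, the log2 value of MICAL2 was 1.03 in the full fit and 0.93 to 1.13 when 1 library was left out. Its call there was lost under several alternatives. Because this contrast chose the gene, nothing is read from the call or its loss. With no filter beyond 1 count, 480 genes were called at D1, 885 at D2 and 433 for the difference, against 197, 500 and 142, with more genes tested. Leaving out 1 library gave 78 to 246 calls at D1, 215 to 653 at D2, 49 to 269 for the difference and 12136 to 12662 for the averaged D2 change (12838 in the full fit). The lowest counts came without DMSO replicate 1 of D1, DMSO replicate 1 of D2, DMSO replicate 1 of D2 and DMSO replicate 2 of D2, and the difference rose to 269 without TCDD replicate 1 of D1. The other fits past 1.5 times were D2 without the second DMSO or TCDD library of that time (268 and 248), and the difference without either DMSO library of D1 or the second library of DMSO or TCDD at D2 (53, 82, 80 and 63). The cause of these shifts was not tested. The averaged D2 split was 6504 higher and 6334 lower, and 4980 and 7727 with no composition scaling, which shifts the median of all genes by -0.10.

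Replicate numbers in the titles give 2 pairs per contrast, too few to show pairing (correlation of same-number deviations 0.212 between treatments at D1, 0.125 at D2 and -0.168 between times with TCDD). With the replicate block, 205, 502, 145 and 12816 genes were called at D1, at D2, for the difference and for the averaged D2 change. With the D2 numbers crossed, chosen after seeing the data, the last was 13120.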

Other observations

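The sign of the difference of TCDD effects equalled that of the averaged D2 change in 7 of the 10 genes, all but AUTS2, MICAL2 and RAB38. The same held for 54.6% of all tested genes and for 47.2% of the genes called for the difference.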
